A study of Homo sapiens with 18 samples.

Results

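The histone cluster genes are the genes that encode the linker histone H1 and the core histones H2A, H2B, H3 and H4, named HIST1H, HIST2H, HIST3H and HIST4H in the gene table used here. They were taken by those name starts, which gave 71 of 36601 genes: 6 for H1, 17 for H2A, 18 for H2B, 15 for H3 and 15 for H4. Of these, 39 had 10 or more raw counts in at least 3 of 18 libraries and were tested, namely 4 H1, 7 H2A, 14 H2B, 7 H3 and 7 H4 genes. The other 32 did not pass that minimum, and together they held between 11 and 83 counts per library. The libraries came from 3 human cholangiocarcinoma (bile duct cancer) cell lines, HuCCT1, YSCCC and KKU-100. In each line, 3 biological replicates carried the lentiviral hairpin shRNF213#2 and 3 carried shControl, both as stable lentiviral lines. RNF213, the target, encodes a large E3 ubiquitin ligase with an ATPase core, and the series asked whether it restrains local invasion of intrahepatic cholangiocarcinoma. KKU-100 was grown in Ham's F12 and HuCCT1 and YSCCC in RPMI-1640, so line and medium cannot be told apart, and a single hairpin was sequenced, so effects of RNF213 loss and of that hairpin cannot be told apart either.

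Most histone mRNA in dividing cells is unlike other mRNA. Such mRNA lacks introns, is transcribed in S phase, and ends at a conserved stem-loop. The stem-loop is bound by SLBP, and a complex with the U7 snRNP cuts the RNA, which leaves no poly(A) tail. A smaller amount of histone RNA reads past the stem-loop to a downstream polyadenylation signal, and such tailed forms are known to be favoured in cells that have left the cycle. The libraries were made with the TruSeq mRNA protocol, which selects poly(A) RNA, so the values below describe mainly the tailed forms and give no measure of the tailless histone mRNA.

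The stem-loops are shown first, because they mark where the tailless mRNA would end. In GENCODE 29 transcripts, 31 of the 69 annotated histone genes held, on the sense strand, the arm GGCNCT, the loop TTTN and the arm AGNGCC in a row (N is any base), against 40 of all 58676 genes. In the forms printed here the capitals mark the arms that pair to make the stem and the lower case marks the loop; T stands for U.
Form of 17 genes (6 H2A, 8 H2B, 3 H3), among them HIST1H2AC and HIST2H2BE: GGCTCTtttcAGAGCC
Form of 5 genes (3 H2B, 2 H3), among them HIST1H2BC and HIST1H2BF: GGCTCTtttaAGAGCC
Form of 5 H4 genes, among them HIST1H4H and HIST4H4: GGCCCTtttcAGGGCC
Form of 3 H4 genes, among them HIST1H4I: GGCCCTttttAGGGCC
Form of HIST1H2AG: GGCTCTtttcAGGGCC
Each stem of H2A, H2B and H3 genes thus opened with GGCTCT and each stem of H4 genes with GGCCCT. No annotated H1 transcript matched, and many of the models without a match stop at the end of the coding sequence, so no match says only that these letters are not in the annotated transcript. For 22 genes an annotated transcript ran 116 to 1917 bases beyond the stem-loop, and 19 of the 22 passed the count minimum. Among the 9 genes with 6 to 86 annotated bases beyond it, 4 passed, and among the 38 with no match 15 did. The count minimum is not corrected for length, and a longer gene model can hold more reads. These shares can therefore depend in part on the annotation. HIST3H2BB had the longest such stretch, 1917 bases, HIST2H2BE had 1729 and HIST1H4H had 1655, whereas HIST1H2AE had 51 and HIST1H2BD had 39. A spliced transcript was annotated for 14 genes, 12 of which passed, among them HIST1H2AC, HIST1H2BD and HIST1H4H.

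The promoters carry the second shared feature. H2B promoters are known for an octamer, ATTTGCAT, bound by OCT1 (POU2F1), and many histone promoters for CCAAT boxes, bound by NF-Y. RefSeq promoters (GRCh38.p14, 250 bases before to 50 after the start) matched 64 of the 71 genes. The octamer, searched on both strands, was in 14 of 18 H2B, 11 of 14 H2A, 1 of 13 H3, 0 of 6 H1 and 0 of 13 H4 promoters, against 1.77% of all 35116 promoters. These windows overlap between head-to-head neighbours, so 1 octamer can count for both genes, as for HIST1H2BJ and HIST1H2AG. The 1 H3 promoter, that of HIST1H3D, is the same stretch as the promoter of the H2A gene HIST1H2AD. CCAAT was in all 18 H2B, 14 H2A, 13 H3 and 6 H1 promoters and in 3 of 13 H4 promoters, against 34.61% of all promoters, and TATAAA was in 42 of the 64, against 11.53%. The following are the 120 bases before the start of the 3 genes that were lower on average over the lines (HIST2H2BE, HIST1H2BJ and HIST2H2BF), then of an H1 and an H4 gene that fell in YSCCC, with ATTTGCAT, CCAAT and TATAAA in capitals on either strand (ATTGG is CCAAT on the other strand).
HIST2H2BE: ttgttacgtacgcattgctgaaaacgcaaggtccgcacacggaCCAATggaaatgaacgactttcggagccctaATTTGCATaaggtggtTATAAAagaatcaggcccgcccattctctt
HIST1H2BJ: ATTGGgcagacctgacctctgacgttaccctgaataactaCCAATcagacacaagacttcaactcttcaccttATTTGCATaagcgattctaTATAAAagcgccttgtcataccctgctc
HIST2H2BF: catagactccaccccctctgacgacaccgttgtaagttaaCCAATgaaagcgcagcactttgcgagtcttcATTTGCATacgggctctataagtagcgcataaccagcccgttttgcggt
HIST1H1C: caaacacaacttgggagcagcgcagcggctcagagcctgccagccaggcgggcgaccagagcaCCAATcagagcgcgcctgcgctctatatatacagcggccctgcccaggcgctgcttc
HIST1H4H: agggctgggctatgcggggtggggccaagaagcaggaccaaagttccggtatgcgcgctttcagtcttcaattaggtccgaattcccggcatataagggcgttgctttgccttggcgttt
All lie on the minus strand, at chr1:149886683-149886802 for HIST2H2BE, chr6:27132796-27132915 for HIST1H2BJ, chr1:149812371-149812490 for HIST2H2BF, chr6:26056471-26056590 for HIST1H1C and chr6:26285535-26285654 for HIST1H4H. In the 3 H2B promoters the octamer began 46, 47 and 49 bases before the start and the nearest CCAAT match 77, 80 and 80 bases before it. HIST1H1C had a CCAAT match 57 bases before the start and no octamer, and HIST1H4H had none of the 3 motifs in this window. A match is a description of the letters only.

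The tailed histone transcripts were a small part of each library and came from few genes. All 71 genes together held 0.0199% to 0.0954% of a library's counts, and the 6 genes with the most counts held 67.1% to 75.3% of these. H2B genes held 32.1% to 41.1% of the histone counts, H2A genes 25.7% to 37.9%, H1 genes 12.5% to 20.6%, H4 genes 7.8% to 11.8% and H3 genes 4.16% to 9.81%. Per length, on the authors' TPM scale, HIST1H2BK averaged 319.8 TPM over the 18 libraries, HIST1H1C 237, HIST1H2BD 135 and HIST1H2AC 126 TPM. The gene models of HIST1H2BK and HIST1H1C span the coding sequence alone, so their TPM is per coding length. HIST1H2BK also shares 74.1% of its 50-base words with transcripts of other genes, so part of its reads could have been assigned either way. Of the 71 genes, 55 lie on chromosome 6 between 25726132 and 27893843 (GRCh38), 12 are HIST2 and 3 are HIST3 genes on chromosome 1, and HIST4H4 is on chromosome 12.

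Library totals ran from 21056732 to 25502097 counts, and 1.61% to 2.76% of these were mitochondrial. RNF213 was lower in the hairpin library of all 9 pairs of equal replicate number (mean log2 ratio -1.01 ± 0.41, SD over 9 pairs, exact two-sided sign-flip permutation test, p = 0.0039). RNF213 had 277, 423 and 283 CPM in the HuCCT1 shRNF213#2 libraries, against 394, 1259.9 and 429 CPM in the shControl libraries (-0.89 ± 0.17 (SE), adjusted p = 0.129). It had 151, 236 and 215 CPM in the YSCCC shRNF213#2 libraries, against 429.5, 381 and 529 CPM in the shControl libraries (-1.16 ± 0.13 (SE), adjusted p = 7.04e-05), and 567, 651 and 557 CPM in the KKU-100 shRNF213#2 libraries, against 1262, 1004 and 1225 CPM in the shControl libraries (-0.98 ± 0.15 (SE), adjusted p = 0.0275). CPM is the raw count per 1000000 counts of the library total, scaled by the trimmed mean of M values (TMM), and the fold changes come from edgeR's quasi-likelihood test with replicate number as a block, with p-values adjusted over all genes tested (Benjamini-Hochberg). The YSCCC and KKU-100 calls passed 0.05 and the HuCCT1 call did not; without replicate 2 or 3 the HuCCT1 call passed (log2 fold change -0.56 and -1.04), and without replicate 1 or 3 the KKU-100 call did not (-0.88 each); without the replicate block no line passed, and the mean over the lines did. The bile duct markers KRT7, KRT19, KRT8, KRT18, EPCAM and SOX9 summed to 3934 to 9693 CPM over the HuCCT1 and YSCCC libraries and to 875 to 1461 CPM in KKU-100, while the hepatocyte markers ALB, APOB and CYP3A4 stayed at or under 0.307 CPM in all 18. Fibroblast markers summed to 7.002 to 37.5 CPM and immune and endothelial markers to 43.4 to 119 CPM; of these lists COL1A1 and COL3A1 fell and PECAM1 rose in YSCCC, and no bile duct marker was called in any line.

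In YSCCC, 12 of the 39 tested histone genes fell with shRNF213#2 and none rose (edgeR, adjusted p below 0.05). Over all 19205 genes tested in this line, 4.22% fell and 3.43% rose. The median log2 fold change was -0.54 over the 39 histone genes, 36 of them negative, and 0.00 over all genes. The 12 were 2 of 4 H1 genes, 3 of 7 H2A genes, 6 of 14 H2B genes, 0 of 7 H3 genes and 1 of 7 H4 genes, and they were 28.1% to 54.0% lower. Of the 12, 11 were lower in all 3 pairs. Whether the cells held fewer tailed transcripts each or fewer cells held them cannot be told apart in bulk RNA.

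**Figure D1:**
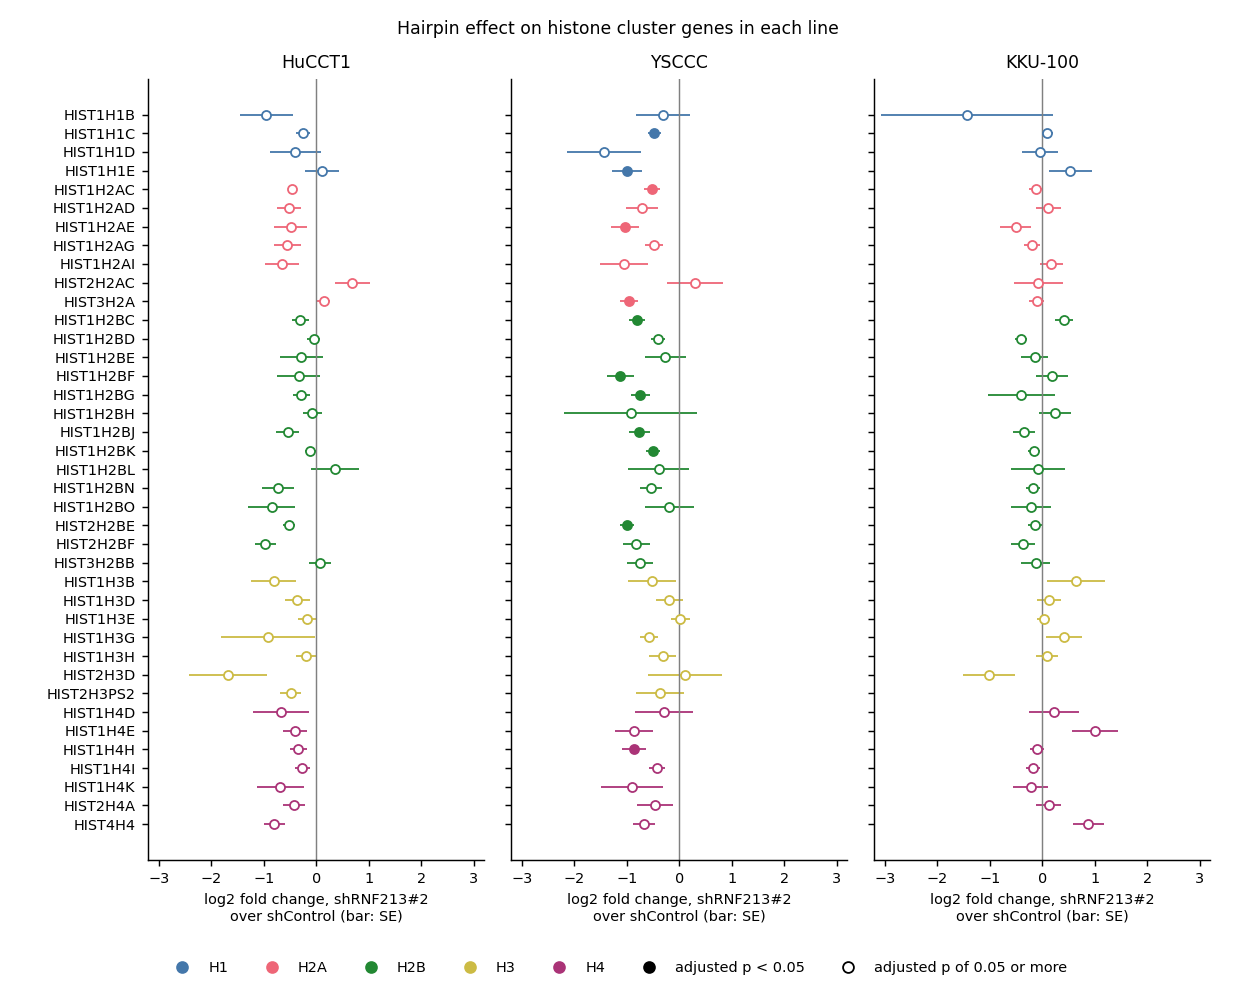
Log2 fold change of the 39 tested histone cluster genes, shRNF213#2 over shControl, in HuCCT1, YSCCC and KKU-100 (bars are standard errors, colours are histone classes, filled points have an adjusted p under 0.05; HIST2H3PS2 had no counts in KKU-100). In YSCCC 12 points are filled, all left of 0; in HuCCT1 34 of 39 lie left of 0 and in KKU-100 22 of 38, with none filled.

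Of the H2B genes, HIST2H2BE (ENSG00000184678, chr1:149884459-149886652, minus strand) had the lowest adjusted p. It had 17.2, 14.4 and 13.7 CPM in the YSCCC shRNF213#2 libraries, against 34.5, 34.9 and 22.5 CPM in the shControl libraries (log2 fold change -1.0 ± 0.13 (SE), adjusted p = 0.00033), and the arms did not overlap. This gene is known as a source of tailed H2B mRNA in differentiated cells. HIST1H2BC, at chr6:26114873-26123926, had 10.3, 7.86 and 5.55 CPM in the YSCCC shRNF213#2 libraries, against 15.7, 16.7 and 9.04 CPM in the shControl libraries (log2 fold change -0.80 ± 0.15 (SE), adjusted p = 0.00393). HIST1H2BF had 1.48, 1.23 and 0.433 CPM in the YSCCC shRNF213#2 libraries, against 2.56, 3.38 and 0.944 CPM in the shControl libraries (log2 fold change -1.12 ± 0.26 (SE), adjusted p = 0.0153). In both, each hairpin library lay below its own pair while the replicate 3 control lay below at least 1 hairpin library.

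The remaining H2B calls were smaller. HIST1H2BG had 7.43, 3.80 and 2.42 CPM in the YSCCC shRNF213#2 libraries, against 10.9, 8.21 and 3.60 CPM in the shControl libraries (log2 fold change -0.74 ± 0.18 (SE), adjusted p = 0.0182). HIST1H2BK had 41.5, 26.7 and 21.9 CPM in the YSCCC shRNF213#2 libraries, against 53.7, 49.7 and 25.8 CPM in the shControl libraries (log2 fold change -0.50 ± 0.13 (SE), adjusted p = 0.0241). HIST1H2BJ had 6.03, 2.57 and 1.05 CPM in the YSCCC shRNF213#2 libraries, against 7.59, 5.30 and 2.18 CPM in the shControl libraries (log2 fold change -0.76 ± 0.21 (SE), adjusted p = 0.0372). In these 3 genes replicate 1 was the highest and replicate 3 the lowest in both arms, so the arms overlapped and the difference rests on the pairs. HIST1H2BD, the H2B gene with the most counts, had 39.2, 26.6 and 24.8 CPM in the YSCCC shRNF213#2 libraries, against 50.1, 47.1 and 25.5 CPM in the shControl libraries (log2 fold change -0.41 ± 0.13 (SE), adjusted p = 0.0786) and did not pass, although each of its 3 pairs was lower.

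Of the H2A genes, HIST3H2A (ENSG00000181218, chr1:228456979-228457873, minus strand) was, beside HIST2H2BE, the other of the 12 called genes whose arms did not overlap. It had 8.91, 5.95 and 12.6 CPM in the YSCCC shRNF213#2 libraries, against 16.9, 16.4 and 18.1 CPM in the shControl libraries (log2 fold change -0.95 ± 0.17 (SE), adjusted p = 0.0025). HIST1H2AE had 2.22, 0.767 and 0.757 CPM in the YSCCC shRNF213#2 libraries, against 3.43, 2.42 and 1.49 CPM in the shControl libraries (log2 fold change -1.03 ± 0.26 (SE), adjusted p = 0.0244). HIST1H2AC, the gene with the most counts of all 71, had 61.9, 47.99 and 49.9 CPM in the YSCCC shRNF213#2 libraries, against 97.6, 96.3 and 46.5 CPM in the shControl libraries (log2 fold change -0.52 ± 0.15 (SE), adjusted p = 0.0479). It was the 1 call with a pair in the other direction, replicate 3, and its adjusted p was the closest to the threshold. HIST2H2AC was positive at 0.30 (adjusted p = 0.808), the only H2A gene that was.

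Of the linker histone genes, HIST1H1C, which encodes H1.2 and held 97.5% of all H1 counts, had 61.5, 37.4 and 28.6 CPM in the YSCCC shRNF213#2 libraries, against 68.2, 63.96 and 40.9 CPM in the shControl libraries (log2 fold change -0.48 ± 0.12 (SE), adjusted p = 0.0234). HIST1H1E, which encodes H1.4, had 1.40, 1.11 and 0.288 CPM in the YSCCC shRNF213#2 libraries, against 3.51, 1.61 and 0.654 CPM in the shControl libraries (log2 fold change -1.0 ± 0.28 (SE), adjusted p = 0.0433). HIST1H1D and HIST1H1B, also negative at -1.43 and -0.31, were near the count minimum and did not pass. The H4 call was HIST1H4H, with 11.98, 5.41 and 8.15 CPM in the YSCCC shRNF213#2 libraries, against 18.3, 19.7 and 9.19 CPM in the shControl libraries (log2 fold change -0.87 ± 0.23 (SE), adjusted p = 0.0287). All 7 H4 genes were negative, between -0.90 and -0.28, while the 7 H3 genes lay between -0.58 and 0.10 with 5 negative and a median of -0.32. The H3 gene with the most counts, HIST1H3E, stood at 0.02. No test compared the classes.

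**Figure D2:**
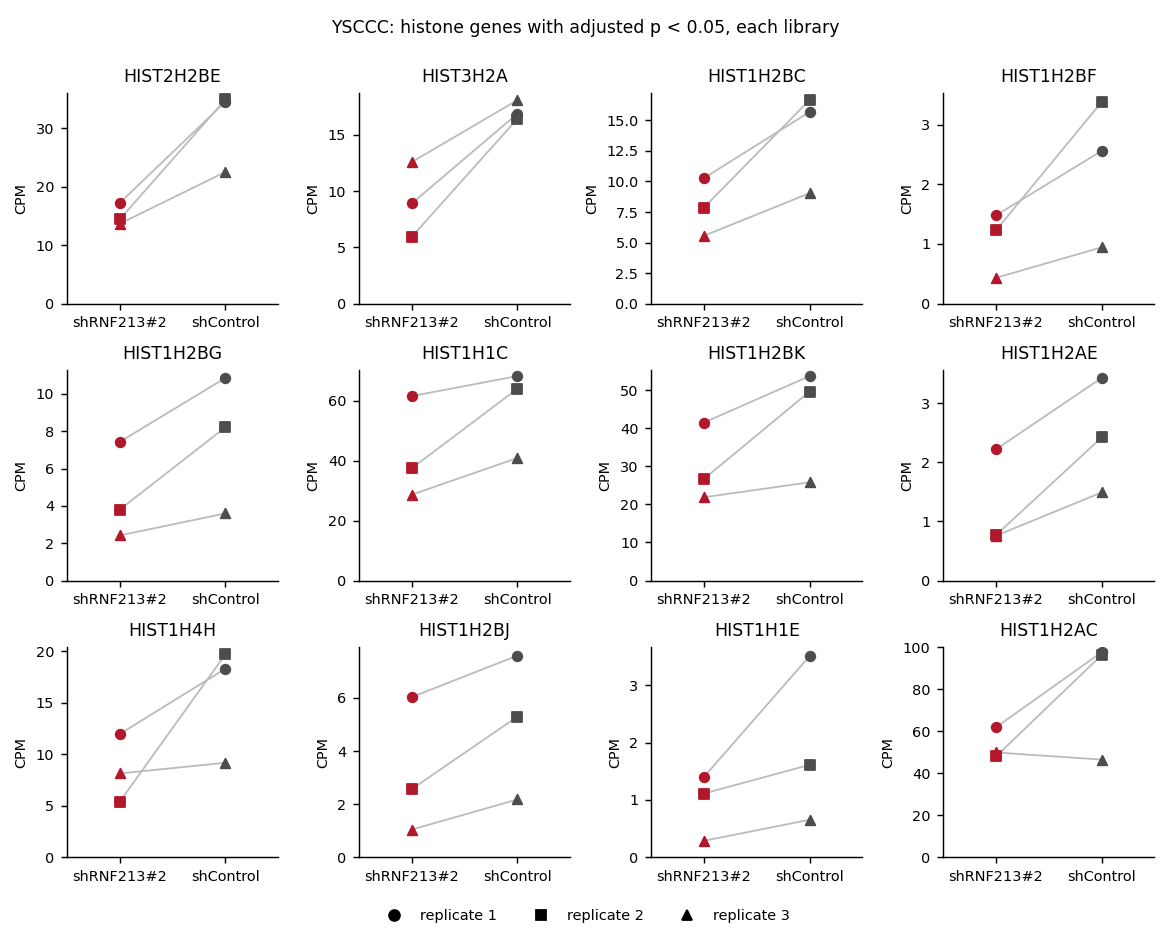
CPM of the 12 histone genes called in YSCCC, in each shRNF213#2 library (left, red) and each shControl library (right, grey); lines join libraries of equal replicate number and each vertical axis starts at 0. All lines rise to the right except replicate 3 of HIST1H2AC, and replicate 3 starts from a low control value in every gene but HIST3H2A.

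The YSCCC calls depended on the pairing, on the replicates and, for 5 genes, on the tool. Without the replicate block 0 of 39 histone genes passed, as did 0 of all genes, with 6 histone genes at an unadjusted p under 0.05 (15.4%, against 4.49% of all genes). Without replicate 1, 4 passed (HIST1H1C, HIST1H2BC, HIST2H2BE and HIST3H2A); without replicate 2, 2 passed (HIST2H2BE and HIST3H2A); without replicate 3, 19 passed, the 12 among them. DESeq2 called 8 of the 12, without HIST1H1E, HIST1H2AE, HIST1H2BF and HIST1H2BJ, and limma-voom 9, without HIST1H1E, HIST1H2AC and HIST1H2BJ. Replicate 3 of YSCCC stood apart in both arms in the 22 genes of replication licensing and S phase. They summed to 2941, 3131 and 958 CPM in the YSCCC shRNF213#2 libraries, against 2568, 2773 and 856 CPM in the shControl libraries. All histone counts summed to 327, 224 and 209 CPM in the YSCCC shRNF213#2 libraries, against 459, 432 and 251 CPM in the shControl libraries. In the histone sum replicate 3 stood apart in shControl only, as replicate 2 was close to it in the hairpin arm. Both sums were lowest in replicate 3 within each arm; the part of that state in the result was not tested. In all 3 pairs the histone sum was lower, and the licensing sum higher, in the hairpin arm.

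In HuCCT1 no histone gene passed, where 0.0266% of 18811 genes fell and 0.101% rose. The median over the 39 genes was -0.41, with 34 negative, against 0.00 over all genes; 9 had an unadjusted p under 0.05, 23.1% of them, against 9.79% of all genes. DESeq2 called 1 gene, HIST1H2AC, and without replicate 2 edgeR called 3, HIST1H1C, HIST1H2AC and HIST2H2BF. HIST2H2BE had 10.5, 11.03 and 10.2 CPM in the HuCCT1 shRNF213#2 libraries, against 14.6, 17.4 and 13.8 CPM in the shControl libraries (log2 fold change -0.52 ± 0.12 (SE), adjusted p = 0.19). The arms did not overlap, as they did not for HIST2H2BF, at chr1:149782689-149812373 and overlapping FCGR1A, which had 1.96, 1.16 and 1.39 CPM in the HuCCT1 shRNF213#2 libraries, against 3.51, 2.43 and 2.89 CPM in the shControl libraries (log2 fold change -0.97 ± 0.20 (SE), adjusted p = 0.144). HIST1H2AC had 41.3, 38.9 and 36.6 CPM in the HuCCT1 shRNF213#2 libraries, against 61.5, 48.5 and 50.98 CPM in the shControl libraries (log2 fold change -0.45 ± 0.09 (SE), adjusted p = 0.138), again without overlap. HIST4H4 had 2.002, 1.16 and 2.81 CPM in the HuCCT1 shRNF213#2 libraries, against 3.59, 2.53 and 4.11 CPM in the shControl libraries (log2 fold change -0.80 ± 0.20 (SE), adjusted p = 0.234), lower in each pair.

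Other abundant genes had smaller differences in HuCCT1. HIST1H2BD had 19.8, 25.7 and 20 CPM in the HuCCT1 shRNF213#2 libraries, against 18.7, 23.6 and 25.6 CPM in the shControl libraries, and HIST1H2BK had 24.7, 27.9 and 26.01 CPM in the HuCCT1 shRNF213#2 libraries, against 22.5, 33.2 and 30.4 CPM in the shControl libraries. HIST3H2A had 29.4, 28.3 and 17.2 CPM in the HuCCT1 shRNF213#2 libraries, against 25.4, 21.5 and 19.9 CPM in the shControl libraries, so it was higher with the hairpin in replicates 1 and 2. HIST1H1C had 25.2, 35.97 and 29.1 CPM in the HuCCT1 shRNF213#2 libraries, against 35.8, 32.5 and 38.7 CPM in the shControl libraries, and only replicate 2 of the pairs was higher. Of the other genes called in YSCCC, HIST1H2BC stood at -0.30, HIST1H2BF at -0.34, HIST1H2BG at -0.28, HIST1H2AE at -0.49, HIST1H4H at -0.34, HIST1H2BJ at -0.55 and HIST1H1E at 0.11 (log2 fold change, none called). HIST1H2BJ had 1.48, 1.16 and 2.23 CPM in the HuCCT1 shRNF213#2 libraries, against 1.84, 2.20 and 3.09 CPM in the shControl libraries. HIST1H2BC had 4.65, 3.18 and 7.19 CPM in the HuCCT1 shRNF213#2 libraries, against 5.18, 4.91 and 8.18 CPM in the shControl libraries, and HIST1H4H had 5.97, 5.83 and 6.26 CPM in the HuCCT1 shRNF213#2 libraries, against 7.80, 5.52 and 9.97 CPM in the shControl libraries. In these last 2 genes the highest hairpin value, in replicate 3, was above the lowest control. At lower levels, HIST1H2BF had 0.921, 0.289 and 0.420 CPM in the HuCCT1 shRNF213#2 libraries, against 0.612, 0.468 and 0.977 CPM in the shControl libraries, and HIST1H2BG had 3.56, 3.71 and 5.59 CPM in the HuCCT1 shRNF213#2 libraries, against 3.88, 4.35 and 7.73 CPM in the shControl libraries. HIST1H2AE had 1.72, 1.44 and 0.714 CPM in the HuCCT1 shRNF213#2 libraries, against 2.04, 1.26 and 2.03 CPM in the shControl libraries, and HIST1H1E had 0.481, 0.867 and 0.798 CPM in the HuCCT1 shRNF213#2 libraries, against 0.367, 0.655 and 0.977 CPM in the shControl libraries. The arms overlapped in all 4.

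In KKU-100 no histone gene passed, where 0.242% of 18611 genes fell and 0.376% rose. The 38 genes tested had a median of -0.09 with 22 negative, against 0.00 over all genes, and 4 had an unadjusted p under 0.05 (10.5%, against 14.1% of all genes); DESeq2 called 0 as well. H2B was the class with the most negative genes, 11 of 14, and H3 that with the fewest, 1 of 6. HIST1H2BD had 106, 58.96 and 74.9 CPM in the KKU-100 shRNF213#2 libraries, against 149, 71.02 and 101 CPM in the shControl libraries (log2 fold change -0.41 ± 0.11 (SE), adjusted p = 0.163), lower in all 3 pairs. HIST4H4 had 1.91, 2.80 and 2.18 CPM in the KKU-100 shRNF213#2 libraries, against 1.25, 1.66 and 0.867 CPM in the shControl libraries (log2 fold change 0.88 ± 0.30 (SE), adjusted p = 0.229), higher in all 3 pairs and without overlap. HIST1H2BC had 23.8, 9.05 and 10.8 CPM in the KKU-100 shRNF213#2 libraries, against 17.6, 7.12 and 7.66 CPM in the shControl libraries (log2 fold change 0.42 ± 0.16 (SE), adjusted p = 0.299), also higher in each pair, and HIST1H1C had 195, 107 and 135 CPM in the KKU-100 shRNF213#2 libraries, against 182, 98.5 and 126 CPM in the shControl libraries.

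Replicate 1 of KKU-100 held the most histone counts in both arms. HIST2H2BE had 38.5, 24.3 and 18.6 CPM in the KKU-100 shRNF213#2 libraries, against 44.6, 22.9 and 22.02 CPM in the shControl libraries (log2 fold change -0.13 ± 0.14 (SE), adjusted p = 0.744). HIST1H2AC had 217, 129 and 137 CPM in the KKU-100 shRNF213#2 libraries, against 261, 113 and 166 CPM in the shControl libraries, and HIST1H4H had 53.4, 16.9 and 21.9 CPM in the KKU-100 shRNF213#2 libraries, against 46.8, 20.6 and 25.2 CPM in the shControl libraries. HIST1H2BK, in contrast, varied little among these 6 libraries, with 82.2, 70.5 and 71.3 CPM in the KKU-100 shRNF213#2 libraries, against 82.2, 79.3 and 86.6 CPM in the shControl libraries. HIST3H2A had 25.5, 21.5 and 28.2 CPM in the KKU-100 shRNF213#2 libraries, against 28.6, 24.8 and 26.8 CPM in the shControl libraries, HIST1H2BJ had 8.30, 4.68 and 4.36 CPM in the KKU-100 shRNF213#2 libraries, against 8.45, 5.87 and 6.94 CPM in the shControl libraries, and HIST2H2BF had 5.97, 4.08 and 3.07 CPM in the KKU-100 shRNF213#2 libraries, against 9.03, 3.81 and 4.53 CPM in the shControl libraries. HIST2H2BF and HIST1H2BJ overlapped between the arms in spite of negative values of -0.36 and -0.34. HIST1H2AE had 1.86, 0.961 and 1.78 CPM in the KKU-100 shRNF213#2 libraries, against 2.75, 1.84 and 1.83 CPM in the shControl libraries, and HIST1H2BF had 2.77, 0.801 and 1.33 CPM in the KKU-100 shRNF213#2 libraries, against 2.75, 0.762 and 0.915 CPM in the shControl libraries. HIST1H1E had 1.24, 0.680 and 0.489 CPM in the KKU-100 shRNF213#2 libraries, against 0.934, 0.582 and 0.193 CPM in the shControl libraries, and HIST1H2BG was at or under 0.780 CPM in all 6. These low values carry wide counting error.

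With all 18 libraries in 1 fit of 9 pairs, 3 histone genes were lower on average over the lines, all H2B, and none was higher; over all 19304 genes 1.46% were lower and 1.42% higher. They were HIST2H2BE (log2 fold change -0.55 ± 0.07 (SE), adjusted p = 0.00134), HIST1H2BJ (log2 fold change -0.55 ± 0.13 (SE), adjusted p = 0.0335) and HIST2H2BF (log2 fold change -0.72 ± 0.14 (SE), adjusted p = 0.0122). HIST2H2BF, which no single line called, had 1.36, 1.07 and 1.80 CPM in the YSCCC shRNF213#2 libraries, against 2.15, 2.92 and 2.40 CPM in the shControl libraries. The median over the 39 was -0.29, with 38 negative, against 0.00 over all genes; HIST2H2AC was the exception at 0.31. The 38 include HIST2H3PS2, which had no counts in KKU-100. Its mean effect (SE 2239) and its differences against KKU-100 therefore cannot be estimated, although it is kept among the 39. DESeq2 called 11, the 3 among them, and the fit without the replicate block called 0. Without replicate 1, 2 or 3 in every line, 0, 2 (HIST2H2BE, HIST2H2BF) and 2 (HIST2H2BE, HIST1H2AC) passed.

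The line differences were tested as differences of the hairpin effect. Between YSCCC and KKU-100, 3 histone genes had a lower effect in YSCCC and none a higher one, where 1.63% of all genes had a lower and 0.984% a higher one. HIST1H2BC differed by -1.22 ± 0.21 (SE, log2, adjusted p = 0.0098), with single-line values of -0.80 in YSCCC and 0.42 in KKU-100. HIST2H2BE differed by -0.88 ± 0.18 (adjusted p = 0.0207). HIST4H4 differed by -1.55 ± 0.33 (adjusted p = 0.0248); it had 2.45, 3.18 and 2.02 CPM in the YSCCC shRNF213#2 libraries, against 4.46, 3.80 and 3.81 CPM in the shControl libraries, lower in each pair, where KKU-100 was higher in each. Without replicate 1 or 3, 0 of these 3 passed, without replicate 2 HIST1H2BC and HIST4H4 did, and without the block none did. With the block 12 of the 39 had an unadjusted p under 0.05 (30.8%, against 18.1% of all genes), and without it 4 (10.3%, against 5.74%). Between YSCCC and HuCCT1, 0 histone genes passed, against 0.0104% of all genes lower and 0.0363% higher, and between HuCCT1 and KKU-100 0 passed, against 0.161% lower and 0.0725% higher. In either comparison 5 of 39 had an unadjusted p under 0.05 (12.8%), against 8.83% of all genes between YSCCC and HuCCT1 and 12.4% between HuCCT1 and KKU-100. DESeq2 called 1 in each, HIST3H2A and HIST4H4. HIST3H2A had the lowest adjusted p of the 39 between YSCCC and HuCCT1, with -0.95 in YSCCC and 0.14 in HuCCT1 (difference -1.09, adjusted p = 0.11).

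The counts were also summed by class, with no test. H2B counts came to 130.3, 88.2 and 79.8 CPM in the YSCCC shRNF213#2 libraries, against 186, 175 and 103 CPM in the shControl libraries, a mean log2 ratio over the pairs of -0.63 ± 0.32 (SD, n = 3). The H2A ratio in YSCCC was -0.59 ± 0.48, the H4 ratio -0.63 ± 0.45, the H1 ratio -0.50 ± 0.28 and the H3 ratio -0.20 ± 0.36. The H3 ratio was -0.40 without replicate 3, -0.09 without replicate 2 and -0.10 without replicate 1, and the H2A and H4 ratios were both -0.37 without replicate 2. Replicate 2 had the lowest ratio in every class, for example -1.03 for H2A, against -0.66 in replicate 1 and -0.07 in replicate 3. In HuCCT1 the ratios lay between -0.37 (H4) and -0.22 (H2B), and H2A, H2B, H3 and H4 were negative in all 3 pairs. In KKU-100 H2B alone was negative in all 3 pairs (-0.22 ± 0.06), while H1 was positive in all 3 (0.10 ± 0.02). A single gene held much of some sums: HIST1H1C held 97.5% of the H1 counts, HIST1H2AC 72.1% of H2A and HIST1H3E 58.9% of H3. Without HIST1H2AC the H2A ratio of HuCCT1 was 0.03 in place of -0.26, and without HIST1H1C the H1 ratio of YSCCC was -1.02 in place of -0.50.

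**Figure D3:**
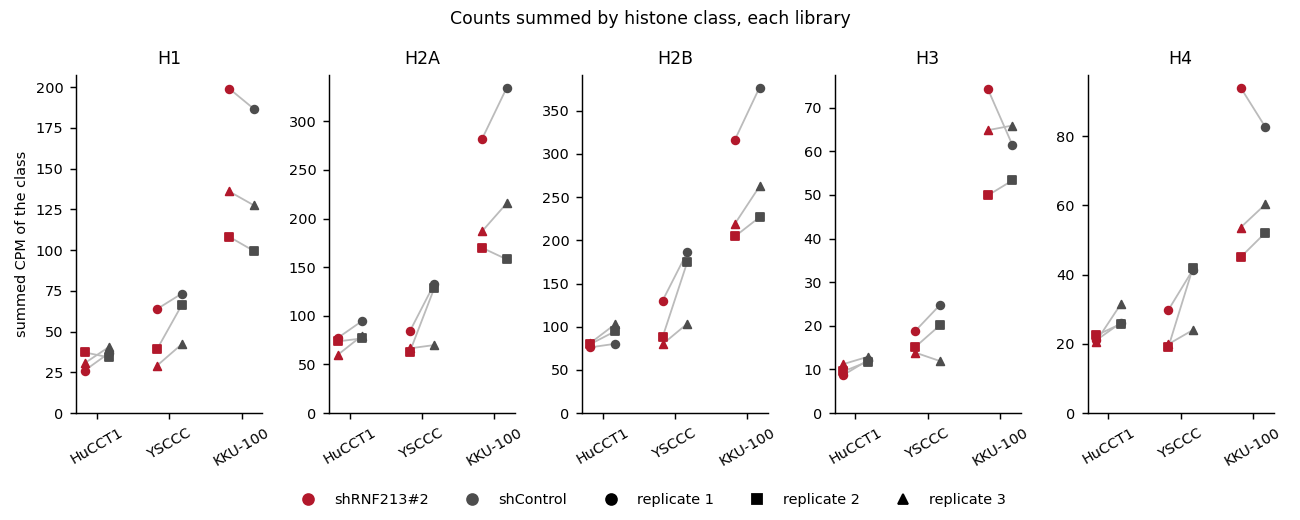
Summed CPM over all members of each histone class in each shRNF213#2 library (red, left of each pair) and shControl library (grey, right); lines join equal replicate numbers and axes start at 0. KKU-100 lies above the other lines in all 5 classes, and in YSCCC every line except replicate 3 of H3 rises from shRNF213#2 to shControl.

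H2A and H2B genes often sit head to head and share a promoter region. Starts within 1000 bases on opposite strands were found for 11 pairs of an H2A and an H2B gene, and both genes were tested in 7. HIST1H2BC and HIST1H2AC start 219 bases apart and stood at -0.80 and -0.52 in YSCCC. HIST1H2BG and HIST1H2AE, 283 bases apart, stood at -0.74 and -1.03, both called, and HIST3H2A and HIST3H2BB, 234 bases apart, at -0.95 and -0.75, the first called. HIST2H2BE and HIST2H2AC, 323 bases apart, differed in sign, at -1.0 and 0.30, and HIST2H2AC had 0.195, 0.499 and 0.180 CPM in the YSCCC shRNF213#2 libraries, against 0.330, 0.269 and 0.109 CPM in the shControl libraries. HIST1H2BK was among the genes with the most counts while its partner HIST1H2AH, 331 bases away, averaged 0.084 CPM and was not tested. Of the 12 genes called in YSCCC, 8 promoters held the octamer, 8 TATAAA and 11 CCAAT; of the 27 tested and not called, 8, 16 and 22 did. The octamer lies almost only in H2A and H2B promoters, and 3 H2A and 6 H2B genes were among the 12. HIST1H2BC shares its octamer with HIST1H2AC, and HIST1H2BG with HIST1H2AE, as their windows overlap. Class was not held equal in these counts, and a link between motif and response was not tested. By locus, 10 of 30 tested HIST1 genes, 1 of 6 HIST2 genes and 1 of 2 HIST3 genes were called.

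Genes that serve histone supply were read from 5 lists. Of 25 tested genes of histone mRNA 3′ end processing, 1 rose in YSCCC and none fell, and the median was 0.00; of all genes 3.43% rose there, so 1 of 25 is near the background. The gene was SNRPD3, an Sm core protein (0.92 ± 0.14, adjusted p = 0.000785), which was also higher on average over the lines (0.52 ± 0.09, adjusted p = 0.00692). SLBP, the stem-loop binding protein, stood at -0.01 ± 0.10, adjusted p = 0.98 in YSCCC. Of 12 genes of histone gene transcription 2 rose in YSCCC, E2F1, an S-phase transcription factor (0.42 ± 0.11, adjusted p = 0.0237), and RBL1, a pocket protein (0.42 ± 0.11, adjusted p = 0.0239). Of 18 histone chaperones 3 rose there: ASF1A (0.53 ± 0.11, adjusted p = 0.0103), ANP32E, a chaperone of H2A.Z (0.47 ± 0.12, adjusted p = 0.0287), and NASP, which holds H3 and H4 (0.34 ± 0.09, adjusted p = 0.0364). On average over the lines CHAF1A, a subunit of the CAF-1 chaperone, rose with ANP32E (0.32 ± 0.07, adjusted p = 0.0335), where 1.42% of all genes rose.

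Of all genes tested, 3.43% rose in YSCCC, 0.101% in HuCCT1, 0.376% in KKU-100 and 1.42% on average over the lines. Of 22 licensing and S-phase genes, 2 rose in YSCCC, MCM7 (0.97 ± 0.10, adjusted p = 5.22e-05) and MCM4 (0.36 ± 0.09, adjusted p = 0.0256), both subunits of the replicative helicase, with 18 of 22 positive. MCM7 also rose in HuCCT1 (0.65 ± 0.09, adjusted p = 0.0376), the 1 gene called there, and none was called in KKU-100; the medians were 0.16 in HuCCT1, 0.22 in YSCCC and 0.32 in KKU-100. None of the 22 fell in any line. The variant histone genes, most of which have introns and ordinary poly(A) tails, had no gene that fell past the threshold either. Of 12 tested, 1 rose in YSCCC, H3F3B, which encodes H3.3 (0.40 ± 0.09, adjusted p = 0.0129). On average over the lines H2AFZ, which encodes H2A.Z, rose (0.30 ± 0.07, adjusted p = 0.0291). The medians of the variant genes were 0.05 in HuCCT1, 0.11 in YSCCC and 0.08 in KKU-100. None of the 5 lists had a gene that fell in any line, where 4.22% of all genes fell in YSCCC, 0.0266% in HuCCT1 and 0.242% in KKU-100; with 12 to 25 genes a list, a count of 0 is near these shares.

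Without knockdown the lines differed in histone level. KKU-100 had the highest mean of 23 of the 39 genes, YSCCC of 10 and HuCCT1 of 6. Of the 39, 5 were higher and 20 lower in YSCCC than in KKU-100, where 32.8% of all genes were higher and 26.9% lower. In HuCCT1, 3 were higher and 17 lower than in KKU-100, where 29.4% of all genes were higher and 26.4% lower. Between YSCCC and HuCCT1, 9 were higher and 4 lower in YSCCC, where 30.2% were higher and 27.4% lower. Without 1 replicate the genes called in either direction came to 14, 20 and 21 for YSCCC over KKU-100, to 17, 19 and 20 for HuCCT1 over KKU-100 and to 8, 6 and 14 for YSCCC over HuCCT1, leaving out replicate 1, 2 or 3; replicate numbers pair nothing between lines, so no block was used.

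**Figure D4:**
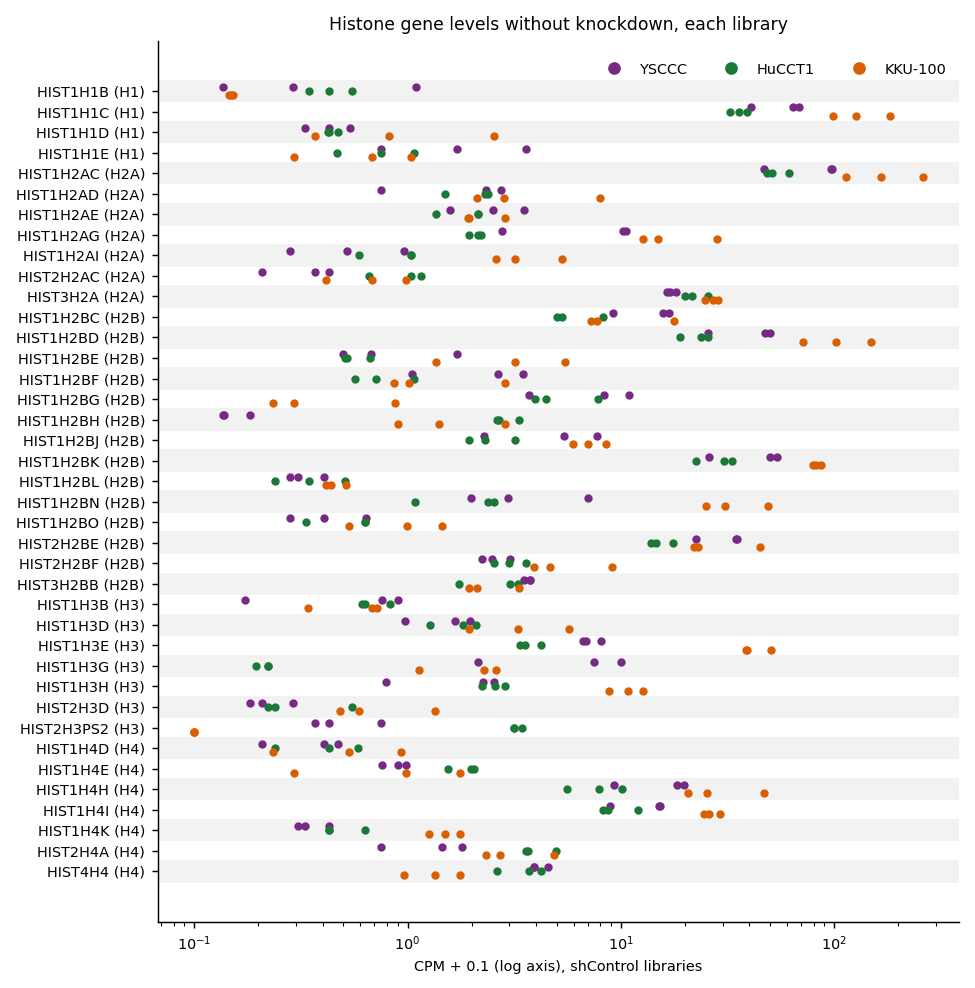
CPM of the 39 tested histone genes in the 3 shControl libraries of each line (1 point per library, log axis, 0.1 added so that 0 can be drawn). KKU-100 lies to the right for HIST1H2BN and HIST1H3E, and to the left for HIST1H2BG and HIST2H3PS2.

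HIST1H2BN, an H2B gene, and HIST1H3E were lower in both of the other lines than in KKU-100. HIST1H2BN, which overlaps the H2A genes HIST1H2AK and HIST1H2AL, had 2.85, 1.88 and 6.94 CPM in the YSCCC and 2.45, 0.982 and 2.28 CPM in the HuCCT1 shControl libraries, against 49.1, 30.8 and 24.95 CPM in KKU-100 (adjusted p = 0.000403 and 0.000103). HIST1H3E had 8.01, 6.53 and 6.75 CPM in YSCCC and 4.12, 3.46 and 3.25 CPM in HuCCT1, against 38.8, 38.6 and 50.6 CPM in KKU-100 (adjusted p = 3e-06 and 1e-06). HIST1H2AC and HIST1H1C were also lower in both of the other lines than in KKU-100 (log2 -1.20 and -1.27 for YSCCC, -1.75 and -1.93 for HuCCT1). The licensing and S-phase genes ran the other way, at 2568, 2773 and 856 CPM in YSCCC and 2348, 3172 and 4070.2 CPM in HuCCT1, against 931, 623 and 614 CPM in KKU-100.

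A few genes were nearly absent from 1 line. HIST1H2BG had 10.9, 8.21 and 3.60 CPM in YSCCC and 3.88, 4.35 and 7.73 CPM in HuCCT1, against 0.778, 0.134 and 0.193 CPM in KKU-100 (adjusted p = 0.00031 and 0.000649), although its head-to-head neighbour HIST1H2AE had 2.75, 1.84 and 1.83 CPM in KKU-100. HIST1H2BH had 0.083, 0.038 and 0.036 CPM in YSCCC, against 2.53, 2.57 and 3.21 CPM in HuCCT1 and 2.75, 0.807 and 1.30 CPM in KKU-100. HIST1H3G had 9.86, 7.37 and 2.03 CPM in YSCCC, against 0.122, 0.094 and 0.122 CPM in HuCCT1 and 2.18, 1.03 and 2.505 CPM in KKU-100. HIST2H3PS2, an H3 gene whose symbol marks a pseudogene, had 0 counts in all 6 KKU-100 libraries and 3.06, 3.32 and 3.05 CPM in the HuCCT1 shControl libraries. A count of 0 allows up to 3 counts per library, on average 0.145 CPM in the KKU-100 shControl libraries, for counting error only. On the TPM scale it was not at 0, with 4.13, 4.94 and 4.28 TPM in HuCCT1, against 0.404, 0.301 and 0.215 TPM in KKU-100.

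Raw counts missed some near-identical copies that TPM did not. In all, 6 genes averaged at least 1 TPM while no library held more than 5 of their raw counts: HIST2H2AA3, HIST2H2AA4, HIST2H4B, HIST2H3A, HIST2H3C and HIST1H2AM. HIST2H2AA3 and HIST2H2AA4, an inverted pair of H2A genes on chromosome 1, share an identical run of 549 bases, the whole of the HIST2H2AA3 transcript. HIST2H3A and HIST2H3C share 1656 bases and HIST2H4A and HIST2H4B 1547. HIST2H2AA3 and HIST2H2AA4 together carried 26.4% to 46.0% of all H2A TPM, so the H2A counts above left out a large part of the class. Of the H4 genes, HIST2H4A and HIST2H4B had the highest mean TPM, 39.4 and 35.0, at a mean of only 2.645 and 0.05 CPM. The H4 counts and summed H4 ratios above thus held little of this pair.

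**Figure D5:**
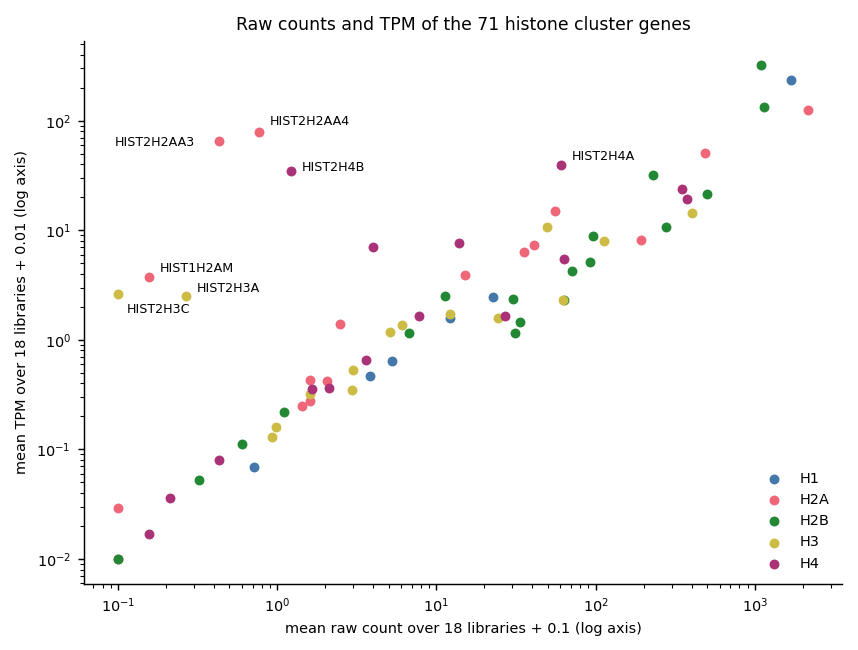
Mean TPM against mean raw count over the 18 libraries for the 71 histone cluster genes (log axes, offsets of 0.01 and 0.1), coloured by class. HIST2H2AA3, HIST2H2AA4 and HIST2H4B lie at 35.0 to 78.6 TPM with almost no raw counts, far from the line of the other genes. HIST2H4A, the copy of HIST2H4B, holds raw counts, but few for its TPM. Its means were 2.645 CPM and 39.4 TPM, against 15.03 CPM and 23.7 TPM for HIST1H4I.

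On the TPM scale, HIST2H2AA4 had 49.02, 36.2 and 24.7 TPM in the YSCCC shRNF213#2 libraries, against 83.8, 105 and 51.9 TPM in the shControl libraries. Each hairpin library was below every control library, and the difference on log2(TPM + 1) was -1.10 ± 0.16 (SE, limma, adjusted p = 0.106). HIST2H2AA4 had 49.7, 38.9 and 43.9 TPM in the HuCCT1 shRNF213#2 libraries, against 55.7, 49.8 and 55.4 TPM in the shControl libraries, and 204, 82.8 and 128 TPM in the KKU-100 shRNF213#2 libraries, against 177, 86.5 and 91.7 TPM in the shControl libraries. HIST2H2AA3 followed it in each library, with 43.7, 32.7 and 22.2 TPM in the YSCCC shRNF213#2 libraries, against 70.6, 88.5 and 45.9 TPM in the shControl libraries. HIST2H4B had 21.01, 17.9 and 19.7 TPM in the YSCCC shRNF213#2 libraries, against 32.96, 23.1 and 14.4 TPM in the shControl libraries, and its arms overlapped. The YSCCC differences on log2(TPM + 1) were -0.19 for HIST2H4A and -0.18 for HIST2H4B (limma, adjusted p = 0.70 and 0.69). None of the 47 histone genes tested on log2(TPM + 1) was called in any line, and neither was any of all 16136 genes; 27 histone genes had an unadjusted p under 0.05 in YSCCC (57.5%, against 18.7% of all genes), 15 in HuCCT1 (31.9%, against 9.37%) and 4 in KKU-100 (8.51%, against 12.4%). TPM keeps no depth. The sources used here do not state how reads of identical copies were divided, and values of such pairs are not treated as separate measurements.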

How the data were processed

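The data were gene tables of 18 poly(A)-selected RNA libraries, 1 file each. The raw counts per gene and the TPM values were used as the authors deposited them; the submitters' processing notes name STAR 2.5.1b, HTSeq 0.6.1p1, StringTie 2.1.6, DESeq2 1.34.0 and build GRCh38, and the role of each, the annotation, the strand setting and the handling of reads with several best positions were not given in the sources used here. The deposited FPKM, coverage signal and DESeq2-normalized signal columns were not used. Without a stated strand setting, genes that overlap cannot be separated with certainty.

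Genes with at least 10 counts in at least 3 of 18 libraries (19304) were fitted with edgeR 4.0.16 (R 4.3.3): TMM scaling, the quasi-likelihood test, each line alone with replicate number as a block, all 18 libraries with 9 pair blocks for the mean effect and the line differences, and the 9 shControl libraries for levels. P-values were adjusted by Benjamini-Hochberg over all genes tested, threshold 0.05. Alternatives were DESeq2 1.42.0, limma-voom (limma 3.58.1), other scalings and filters, no block, each replicate left out, and, added after seeing the data, limma on log2(TPM + 1) for genes with a mean TPM of at least 1 and a count over members that overlap no other gene. The fit was tested on simulated data.

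Equal replicate numbers were taken as pairs because same-numbered libraries deviated together from their group means (r 0.72 to 0.79 in HuCCT1, 0.72 to 0.90 in YSCCC and 0.40 to 0.73 in KKU-100 over 10228 to 10698 genes). Some unmatched libraries also did: in YSCCC hairpin 1 with control 2 (0.66) and hairpin 2 with control 1 (0.52), and in KKU-100 hairpin 2 with control 3 (0.13). All other unmatched values were negative. In YSCCC, replicates 1 and 2 are thus less clearly paired than replicate 3. The labels call the replicates biological and do not say what a number shares.

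Named were the members called in any of these fits with the block, the 6 members with the most counts, each with every library's value, and up to 4 called genes per list; other members were chosen after their values were seen. The members and lists were chosen with earlier results of these data known. Stem-loops and shared 50-base words came from GENCODE 29 transcripts, promoters from RefSeq. Intervals and limits cover counting error only.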

Additional observations from a re-analysis of the deposited data

Results flagged for a closer look

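The hairpin effect differed between YSCCC and KKU-100 for 3 histone genes, by the edgeR test of the difference itself. The log2 difference, YSCCC minus KKU-100, was -1.22 for HIST1H2BC, -0.88 for HIST2H2BE and -1.55 for HIST4H4. HIST4H4 was lower with the hairpin in all 3 YSCCC pairs and higher in all 3 KKU-100 pairs. Line and medium differ together between these cells, and without replicate 1 or 3 none of the 3 differences passed.

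Signal in the TPM column, beside at most 5 raw counts in any library, was found for 6 histone genes that the count tests left out. Their mean TPM over the 18 libraries was 78.56 for HIST2H2AA4, 65.78 for HIST2H2AA3, 34.96 for HIST2H4B, 3.71 for HIST1H2AM, 2.64 for HIST2H3C and 2.53 for HIST2H3A. All but HIST1H2AM have a copy with an identical run of 549 bases or more; HIST1H2AM overlaps HIST1H3J and shares 86.3% of its 50-base words with other genes.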

How the results depend on the processing

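The count of histone genes called in YSCCC, 12, stayed within 1.5 times under both other scalings, filterByExpr, no filter, DESeq2, limma-voom and without members that overlap other genes; HIST1H2AC was lost under library totals and under filterByExpr. It was 0 without the replicate block, 0 by limma on log2(TPM + 1), 5 with all 18 libraries in 1 fit and 2 to 19 without 1 replicate. In HuCCT1 (0) it was 1 with no filter, 1 by DESeq2 and 0 to 3 without 1 replicate. In KKU-100 it was 0 under all alternatives of the fit of that line alone. With all 18 libraries in 1 fit the KKU-100 count was also 0. In that joint fit it was 1, higher with the hairpin, with no filter and again without replicate 2. The mean effect (3) was 0 without the replicate block, 9 with no filter, 11 by DESeq2 and 0 to 2 without 1 replicate. For YSCCC minus KKU-100 (3) it was 0 without the block, 5 with no filter and 0 to 2 without 1 replicate. YSCCC minus HuCCT1 and HuCCT1 minus KKU-100 (0 each) were 1 with no filter and 1 by DESeq2. The shControl counts were 6 to 14 (YSCCC over HuCCT1, 13) and 14 to 21 (YSCCC over KKU-100, 25) without 1 replicate. Without the member with the most counts, the summed log2 ratio was -1.02 for H1 in YSCCC, 0.032 for H1 and -0.12 for H2B in KKU-100 and 0.03 for H2A in HuCCT1. Of 204 values of named histone genes under alternatives, 126 kept their side of the threshold, 78 lost it and none changed sign. The cause of these changes was not tested, except that fewer samples enter where a replicate is left out. Depth limits the lowest of the 39 and untested genes with few reads, but not the 6 untested genes with TPM and almost no raw counts. The untested HIST1H4J, at 0 to 11 raw counts and a mean of 7.02 TPM, is not among these 6.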
